A study of Danio rerio with 2 samples.

Results

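Complex I (NADH:ubiquinone oxidoreductase) is the first enzyme of the mitochondrial respiratory chain. It takes electrons from NADH, passes them to ubiquinone and pumps protons across the inner membrane. Most of its subunits are encoded in the nucleus and imported, but 7 core subunits of its membrane arm are encoded by the mitochondrial genome, and a heart cell depends on both sets for its ATP. The 7 genes examined here, *mt-nd1*, *mt-nd2*, *mt-nd3*, *mt-nd4*, *mt-nd4l*, *mt-nd5* and *mt-nd6*, are these mitochondrial genes. They were found by name, and all 7 were among the 33396 genes of the table.

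The RNA-seq data compared hearts of zebrafish embryos at 72 hpf, with 1 library from control hearts, whose genotype is recorded as wild type, and 1 library from hearts homozygous for *smyd4* L544Efs*1, a frameshift allele of a SET and MYND domain lysine methyltransferase gene. Each library came from the pooled hearts of many embryos. The methods state that the mutants were maternal and zygotic, that both groups carried the cardiomyocyte reporter of the Tg(cmcl2:GFP) line and that the fluorescence guided the dissection, whereas the records give the strain of both as Tu. The comparison asked how the transcriptome of the heart differed without functional smyd4.

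With 1 library per group, no difference had a replicate check and the genotypes could not be tested. Values are in FPKM, reads scaled by gene length and by the depth of the library. Levels of different genes are thus given per length, but the counting rule behind them is not known. For a short gene that overlaps another, such as *mt-nd4l*, the level may not measure the mRNA. Differences are log2(FPKM + 1) in the mutant-labelled library minus control, and a gene is called higher or lower when the difference exceeds 1. The library totals worked out from the values were 18840114 reads for control and 17960132 for the other library. Intervals are 95% intervals from the recovered reads and cover counting error only. Given those reads, they are exact for levels and for the ratio of 1 gene between the libraries, and approximate for changes of a ratio between genes.

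The mutated gene, *smyd4* (ENSDARG00000060983), was at 2.42 FPKM in both libraries (111 and 106 reads). The paper reports that qRT-PCR and in situ hybridization found its transcript lost in mutant embryos, and the heart libraries showed no such loss. The second library is therefore called the mutant-labelled library throughout, and each direction rests on that label. The tissue label was checked on cardiomyocyte markers, and all 8 identifiers that matched 7 of the 10 listed names were detected in both libraries, from 15.3 FPKM upward in control and from 28.4 FPKM upward in the mutant-labelled library. Their summed level was 6567 and 7175 FPKM, with 4 higher, 1 lower and 3 within the threshold. Among them *myl7*, the cardiac myosin light chain gene behind the reporter, stood at 642.0 and 2977 FPKM, whereas the cardiac actin gene *actc1a*, named after its values were seen, stood at 4275 and 1685 FPKM. Markers of other tissues were also detected, and their sums differed between the libraries. The 11 liver and yolk markers summed to 33629 FPKM in control against 7433 FPKM in the mutant-labelled library, with 9 lower, and 6 skeletal muscle markers summed to 7750 and 1963 FPKM, with 4 lower and 1, *myhz2*, higher (17.0 and 118.4 FPKM). The 6 erythrocyte markers summed to 3069 and 2326 FPKM, 5 neural markers to 123 and 85.4 FPKM and 4 endothelial markers to 35.6 and 37.3 FPKM. The 8 lens and retina markers summed to 0.626 FPKM in control, where 7 of them were at 0, and to 61.0 FPKM in the other library. The part of these tissues in the results below was not tested, and in bulk hearts fewer cells of a type and less RNA per cell cannot be told apart.

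The 7 mitochondrial complex I genes did not move together. In the mutant-labelled library, *mt-nd4l*, *mt-nd4* and *mt-nd1* were higher, *mt-nd3* was lower, and *mt-nd2*, *mt-nd5* and *mt-nd6* differed by less than the threshold. The call of *mt-nd1* was lost when the libraries were scaled by the TMM method (0.59). Thus 3 of 7 were higher and 1 was lower, where 33.3% of all 17800 tested genes were higher and 11.6% were lower. Among the 3 higher genes, *mt-nd4l* and *mt-nd4* overlap and in vertebrates share a single mRNA, so they are not separate observations. The median difference of the 7 genes was 0.87, and that of all tested genes was 0.49. All 7 passed the filter of at least 1 FPKM in either library.

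**Figure D1:**
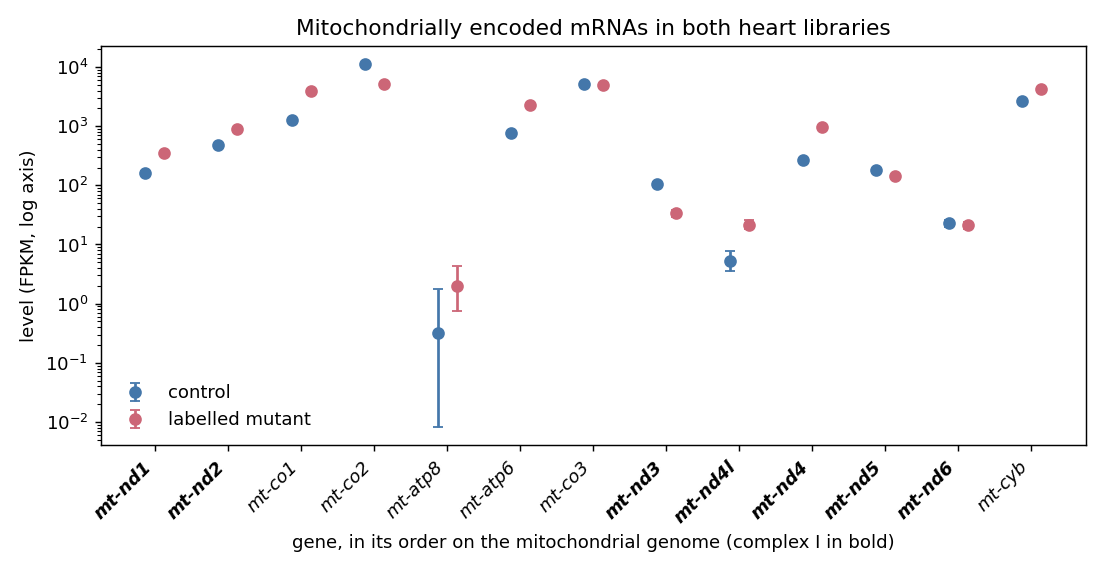
Level in FPKM (log axis) of the 13 mitochondrially encoded protein genes in the control library (blue) and the mutant-labelled library (red). The genes stand in their order on the mitochondrial genome. Bars are exact 95% intervals for counting error, the complex I genes are in bold, and *mt-nd3*, which fell from 107.2 to 33.9 FPKM, stands next to *mt-nd4l* and *mt-nd4*, which rose.

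The antiporter-like subunits mt-nd2, mt-nd4 and mt-nd5 form the proton-pumping part of the membrane arm, and their genes spanned the range from a rise to a difference below 0. *mt-nd4* (ENSDARG00000063917) was at 273.4 FPKM in control (7114 reads) and 964.5 FPKM in the mutant-labelled library (23922 reads). The ratio was 3.53 (interval 3.44 to 3.62), and the log2 difference was 1.81, or 1.32 relative to the median of all genes. This was the gene with the highest level of the 7 in the mutant-labelled library. *mt-nd2* (ENSDARG00000063899) held that place in control, at 489.9 FPKM, and was at 895.6 FPKM in the other library, with a difference of 0.87 that did not reach the threshold. *mt-nd5* (ENSDARG00000063921), the longest of the 7 genes, was at 179.7 and 141.8 FPKM. Its difference was -0.34, or -0.83 relative to all genes. Within the same proton-pumping group, the ratio of *mt-nd4* to *mt-nd5* was therefore 1.52 in control and 6.80 in the mutant-labelled library, a change of 4.47-fold (4.27 to 4.68).

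The subunits mt-nd1 and mt-nd3 lie at the junction of both arms, around the site where ubiquinone binds, and their genes moved in opposite directions. *mt-nd1* (ENSDARG00000063895) had a control level of 163.2 FPKM and reached 353.1 FPKM in the mutant-labelled library, a ratio of 2.16 (2.01 to 2.34) and a log2 difference of 1.11. At least 999 and 2061 reads lay behind these values. The recovered numbers are the smallest that give the values, and the true ones can be a common multiple. In that case the intervals given for *mt-nd1* and for its ratios to other genes are too wide. *mt-nd3* (ENSDARG00000063914) was at 107.2 FPKM in control (709 reads) and fell to 33.9 FPKM (214 reads). The ratio was 0.317 (0.270 to 0.369), and the log2 difference of -1.63 was -2.12 relative to all genes. *mt-nd1* was 1.52 times as abundant as *mt-nd3* in control and 10.4 times as abundant in the mutant-labelled library, so this ratio changed 6.84-fold (5.76 to 8.11).

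The small subunits mt-nd4l and mt-nd6 sit between the quinone site and the pumping subunits. Both genes had few reads. *mt-nd4l* (ENSDARG00000063916) was at 5.36 FPKM in control, from 30 reads, and at 21.7 FPKM in the mutant-labelled library, from 116 reads. The ratio was 4.06 with a wide interval (2.70 to 6.28), and the log2 difference was 1.84. The ratio of *mt-nd4* (3.53) lay within that interval, so these genes could not be ranked by their difference. *mt-nd6* (ENSDARG00000063922), the only one of the 7 that vertebrates encode on the light strand of the mitochondrial genome, was at 23.0 FPKM (225 reads) and 21.0 FPKM (196 reads). Its ratio was 0.914, and the interval (0.751 to 1.11) includes 1, so no difference was detectable on the deposited scale at this depth. The log2 difference was -0.12, but -0.62 relative to the median of all genes, so this result depends on the scaling. In human cells the ND6 mRNA lacks a poly(A) tail, and whether poly(A) RNA was selected is not given in the sources used here, so the level of *mt-nd6* relative to the others may not be that in the tissue.

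The order of the levels within each library does not depend on the scaling between the libraries. In control it was *mt-nd2*, *mt-nd4*, *mt-nd5*, *mt-nd1*, *mt-nd3*, *mt-nd6* and *mt-nd4l*, from 489.9 to 5.36 FPKM, and no neighbors in this order had overlapping intervals. In the mutant-labelled library it was *mt-nd4*, *mt-nd2*, *mt-nd1*, *mt-nd5*, *mt-nd3*, *mt-nd4l* and *mt-nd6*, from 964.5 to 21.0 FPKM. Here *mt-nd4l* and *mt-nd6* could not be told apart, with intervals of 18.0 to 26.1 and 18.2 to 24.2 FPKM. *mt-nd4* and *mt-nd2* had thus exchanged places, as had *mt-nd1* and *mt-nd5*, and the FPKM of *mt-nd4l* had come level with that of *mt-nd6*. The FPKM of *mt-nd4l* may not measure its mRNA, so its place in both orders is uncertain.

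Ratios were computed for all 21 pairs of the 7 genes. Of these, 15 changed by more than 2-fold between the libraries, counting either direction. The 21 pairs share the same 7 genes and are not independent. The rate over pairs of all genes was not computed, so whether 15 is many is not known. The ratio of *mt-nd3* to *mt-nd4l* went from 20.0 in control to 1.56 in the mutant-labelled library, a change of 12.8-fold (8.34 to 19.7) that rests on 30 reads of *mt-nd4l* in control. The change of *mt-nd3* to *mt-nd4*, 11.1-fold (9.54 to 13.01), lay within that interval. Ratios with *mt-nd4l* are ratios of FPKM, which for this gene may not measure its mRNA. *mt-nd3* and *mt-nd4l* are neighbors, as 1 tRNA gene separates them in the RefSeq annotation of GRCz12tu, which was used for gene order only. In vertebrates the heavy strand is transcribed as a long precursor that is cut at the tRNAs, so both mRNAs come from the same kind of precursor. In only 2 of the 21 pairs did the interval of the change include 1. The first was *mt-nd4* to *mt-nd4l*, with 51.0 in control, 44.4 in the other library and a change of 0.870 (0.582 to 1.30). The second was *mt-nd5* to *mt-nd6*, with 7.81, 6.74 and a change of 0.863 (0.710 to 1.05). These are the only pairs among the 7 whose genes overlap in that annotation. Each also holds a gene with few reads, *mt-nd4l* or *mt-nd6*, which widens its interval. The ratio of *mt-nd1* to *mt-nd2*, which 3 tRNA genes separate, had a similarly small change of 1.18, with a narrower interval (1.09 to 1.28). *mt-nd4l* and *mt-nd4* overlap on the same strand, and in vertebrates their mRNA is bicistronic. *mt-nd5* and *mt-nd6* lie on opposite strands, and because the use of strand in the counting is not stated, reads of *mt-nd6* cannot be told apart from antisense RNA of its neighbor.

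**Figure D2:**
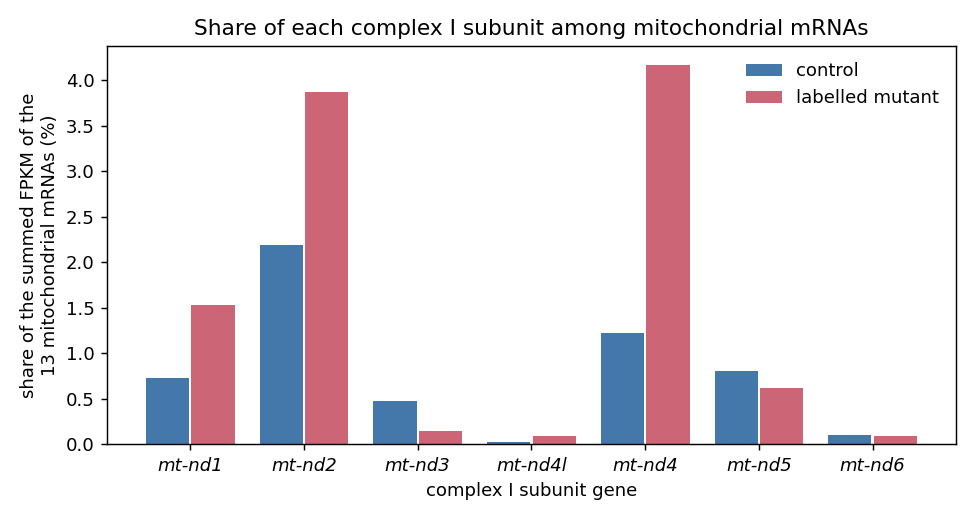
Percent share of each complex I gene in the summed FPKM of the 13 mitochondrial protein genes, for control (blue) and the mutant-labelled library (red). *mt-nd4*, *mt-nd2* and *mt-nd1* took larger shares in the mutant-labelled library and *mt-nd3* a smaller one.

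As a group, the complex I mRNAs took a larger share of the mitochondrial mRNAs in the mutant-labelled library. As deposited, the 7 genes summed to 1242 FPKM in control against 2432 FPKM in the other library, 1.96 times as much. The 6 other protein genes of the mitochondrial genome summed to 21090 and 20717 FPKM, a ratio of 0.982. Both ratios depend on the scaling between the libraries, for which the TMM factor of the mutant-labelled library relative to control was 1.43. Shares within a library do not depend on it. The complex I genes therefore held 5.56% of the summed level of all 13 genes in control and 10.5% in the mutant-labelled library. *mt-nd4* went from 1.22% to 4.17%, *mt-nd2* from 2.19% to 3.87% and *mt-nd1* from 0.731% to 1.53%. *mt-nd3* went from 0.480% to 0.147% and *mt-nd5* from 0.805% to 0.612%. The gene that weighed most on these shares was *mt-co2*, a cytochrome c oxidase subunit, which held 49.98% of the sum in control and 22.6% in the mutant-labelled library. Leaving it out, the complex I genes held 11.1% and 13.6%. All 13 genes together made up 2.74% of the summed FPKM of the control library and 3.31% of that of the other.

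Among the 6 other genes, 3 were higher (*mt-co1*, *mt-atp6* and *mt-atp8*) and 1 was lower (*mt-co2*). Of all tested genes, 33.3% were higher and 11.6% lower. The median difference of the 6 genes was 0.93, or 0.44 relative to all genes. *mt-co1* (1.67) and *mt-atp6* (1.58), which encode subunits of cytochrome c oxidase and of ATP synthase, rose about as much as *mt-nd4*, and *mt-co2* (-1.09) fell, like *mt-nd3*. *mt-cyb*, the mitochondrial subunit of complex III, differed by 0.67 and *mt-co3* by -0.08. *mt-atp8* (1.19) rested on 1 read in control and 6 in the other library, a ratio of 6.29 (0.764 to 289.5). That interval includes 1, so its call as higher is uncertain. The median of the 6 genes lies between *mt-cyb* and *mt-atp8*, so it also depends on these few reads.

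**Figure D3:**
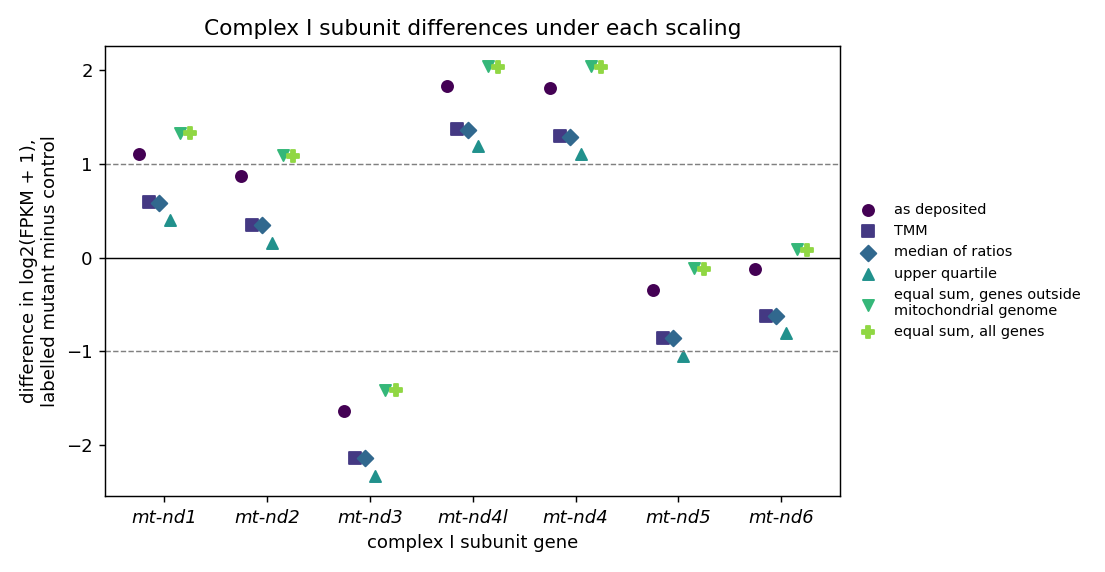
Difference in log2(FPKM + 1) of the 7 complex I genes, mutant-labelled library minus control, as deposited and under 5 other scalings of the libraries. Dashed lines mark the threshold of 1 in each direction, past which *mt-nd3*, *mt-nd4* and *mt-nd4l* lay under every scaling drawn.

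The scaling between the libraries decided which further genes passed the threshold. TMM scaling (trimmed mean of M values) brought the median of all genes from 0.49 to 0.04, and 21.2% of all genes were then higher and 19.3% lower. On this scale *mt-nd4l* (1.37) and *mt-nd4* (1.30) were higher and *mt-nd3* (-2.14) was lower, while *mt-nd1* was at 0.59. Upper-quartile scaling also put *mt-nd5* past the threshold, at -1.05. The difference of *mt-nd6* was -0.62 with TMM and -0.80 with upper-quartile scaling. It changed sign when both libraries were set to the same sum over all genes, or over the genes outside the mitochondrial genome (0.09 in both cases). That of *mt-nd5* remained negative under each scaling drawn.

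The nuclear-encoded subunits of the same complex were lower more often than higher. Of 37 tested nuclear subunit genes, 2 were higher and 19 lower, where 33.3% of all tested genes were higher and 11.6% lower. The median difference of these 37 genes was -1.02, or -1.51 relative to all genes. The 7 nuclear core subunits, which form the matrix arm with the iron-sulfur clusters and the NADH site, had 1 higher and 2 lower genes and a median of -0.57. In this group *ndufv2* went from 742.3 FPKM in control to 203.7 FPKM in the mutant-labelled library, and *ndufs7* was at 887.1 and 247.9 FPKM. Of the 30 accessory subunits, 1 was higher and 17 lower, with a median of -1.10. The genes that fell most were *ndufa5* (-2.00), *ndufb9* (-1.93) and *ndufs4* (-1.92). With TMM scaling, 29 of the 37 nuclear genes were lower and 1 was higher, where 19.3% and 21.2% of all tested genes were. Once a trend with the recovered gene length was removed, 12 of the 37 were lower and 2 higher. Of all 17800 tested genes, 1875 were then lower and 5985 higher.

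The 14 core subunits of the complex thus held 4 higher and 3 lower genes as deposited, where 33.3% of all tested genes were higher and 11.6% lower. The median difference of the 14 genes was -0.16. The balance of higher and lower core genes turned round with the scaling, to 2 and 5 with TMM and 2 and 6 with upper-quartile scaling. Of all tested genes, 21.2% were higher and 19.3% lower with TMM, and 3084 of 17826 were higher and 4118 lower with upper-quartile scaling. The median of the core genes was above 0 (0.05) with equal sums over all genes. Of the 4 higher core genes as deposited, 3 were mitochondrial (*mt-nd1*, *mt-nd4* and *mt-nd4l*), and of the 3 lower core genes, 1 was (*mt-nd3*). The counts of higher core genes include both *mt-nd4* and *mt-nd4l*, which in vertebrates share a single mRNA. Nuclear complex I genes whose difference lay close to the median of the 7 mitochondrial genes included *ndufv3* (0.73) and *ndufs1* (0.42). This likeness is the distance between log2 differences over 2 libraries and nothing more. Whether the mitochondrial and the nuclear set differ beyond the variation between hearts was not tested, as each group had 1 library.

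**Figure D4:**
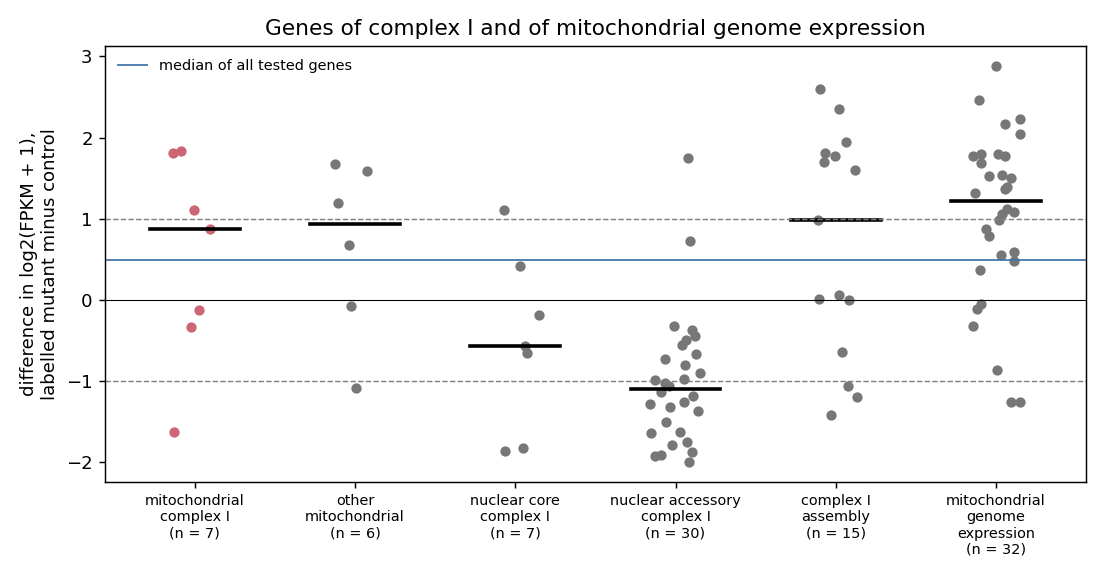
Difference in log2(FPKM + 1), mutant-labelled library minus control, of each tested gene in 6 lists, with the list median as a black bar, the median of all tested genes (0.49) as a blue line and the threshold as dashed lines. The mitochondrial complex I genes (red) lie between -1.63 and 1.84, and most nuclear accessory subunits lie below 0.

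Assembly factors of complex I and genes that express and maintain the mitochondrial genome were examined next, because the mitochondrial subunits depend on both. Of 15 tested assembly factors, 7 were higher and 3 lower, where 33.3% of all tested genes were higher and 11.6% lower. With TMM scaling 7 were higher and 4 lower, where 21.2% and 19.3% of all tested genes were. The median of these factors as deposited was 0.99, or 0.50 relative to all genes. *ndufaf7*, an arginine methyltransferase that acts on a core subunit, rose from 2.48 to 20.2 FPKM. *timmdc1*, which takes part in assembly of the membrane arm, rose from 10.8 to 58.9 FPKM, and *acad9*, an assembly factor related to acyl-CoA dehydrogenases, rose from 8.01 to 30.5 FPKM. All 3 were above the median of all genes by more than 1.

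Of 32 tested genes of mitochondrial genome expression and maintenance, 19 were higher and 2 lower, where 33.3% of all tested genes were higher and 11.6% lower. The median difference of the 32 genes was 1.22, or 0.72 relative to all genes. With TMM scaling 13 were higher and 3 lower, where 21.2% and 19.3% of all tested genes were. The largest increase was that of *tfam*, which packages mitochondrial DNA and activates its transcription, from 4.46 to 39.4 FPKM. *fastkd3*, of a family that acts on mitochondrial RNA, rose from 1.66 to 13.7 FPKM, and *tbrg4*, of the same family, rose from 5.60 to 29.8 FPKM. The mitochondrial RNA polymerase gene *polrmt*, chosen after its values were seen, was at 3.35 and 9.78 FPKM, a difference of 1.31. In the same list *slirp*, whose product binds mitochondrial mRNAs together with the product of *lrpprc*, fell from 32.4 to 12.9 FPKM, whereas *lrpprc* rose from 12.8 to 38.7 FPKM. Both were also chosen after their values were seen. Beside these 32 genes, the 7 mitochondrial complex I genes ranged from -1.63 to 1.84.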

How the data were processed

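Hearts at 72 hpf gave 1 control library and 1 library labelled as *smyd4* mutant. The authors deposited 1 FPKM value per gene and library, with no further scaling between libraries. The unit was recognized from the values. The submitters' processing notes name TopHat2 2.0.9 and Bowtie2 2.0.6, and the genome build, annotation and counting rule are not given in the sources used here. Close copies, including nuclear copies of mitochondrial DNA, may have shared reads with the genes described.

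Ensembl identifiers were paired with symbols (26433 of 33396 genes). A gene was tested when either library had 1 FPKM or more, against a threshold of 1 on log2(FPKM + 1). Ratios of the FPKM values gave the library totals, and the smallest whole reads and gene lengths that give each value were kept (91.5% and 91.0% of the totals). Ratio intervals are Clopper-Pearson, and those of levels are exact Poisson. Changes of a ratio between genes have intervals of the sample log odds ratio of the reads. Scripts were tested on simulated data. The genes and lists were chosen with earlier results of these data known. Named genes are the 7 complex I genes, the 6 other mitochondrial genes, the 3 genes with the largest difference in each other list reaching 10 FPKM in the higher library, and the 3 nuclear complex I genes closest to the median of the 7. One gene selected this way is left out of the text. Marker lists are given by sums and counts. The mitochondrial ribosomal RNAs were not analysed here. Alternatives were 5 scalings, a pseudocount of 0.1, 2 filters, a threshold of 2 and, chosen after seeing the data, removal of lowess trends (span 0.3) and other ways to compute the share. The trend with length used the recovered length, which can be shorter than the gene. Computations ran in Python 3.11.15 (scipy 1.17.1, numpy 2.4.6, statsmodels 0.14.6, pandas 2.3.3), and plots in matplotlib 3.10.9.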

Additional observations from a re-analysis of the deposited data

How the results depend on the processing

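The differences of *mt-nd3* (-2.33 to -1.28), *mt-nd4* (1.11 to 2.69) and *mt-nd4l* (1.20 to 2.20) kept their direction and stayed past 1 under 8 alternatives. These are the ones that could move the values (5 scalings, the pseudocount and both trend removals). The larger threshold of 2 was applied to the deposited values only, where 0 of the 7 genes were higher and 0 lower. Of all 17800 tested genes, 1565 were higher and 411 lower at that threshold. As the ranges show, *mt-nd3*, *mt-nd4* and *mt-nd4l* each passed 2 under some of the alternatives. *mt-nd1* ranged from 0.40 to 1.67. The number of higher genes among the 7 was 2 with each of TMM, upper-quartile and median-of-ratios scaling. It was 4 with equal sums over all genes, equal sums outside the mitochondrial genome or removal of the trend with mean expression. Of all tested genes, 3773 of 17800 were higher with TMM, 3084 of 17826 with upper-quartile and 3749 of 17801 with median-of-ratios scaling. With equal sums over all genes 6884 of 17847 were higher, and with equal sums outside the mitochondrial genome 6923 of 17848. Removal of the trend with mean expression gave 6054 of 17800. Of the 7 genes, 2 were lower with upper-quartile scaling, where 4118 of 17826 tested genes were. The median of the 7 genes was 0.35 with TMM and with median-of-ratios, 0.16 with upper-quartile scaling, 1.097 with equal sums outside the mitochondrial genome, 1.09 with equal sums over all genes and 1.59 without the trend with expression. Removal of that trend turned *mt-nd5* to 0.04, and removal of the trend with recovered length turned *mt-nd6* to 0.22. The share of the complex I genes was 7.08% and 11.7% in recovered reads, and 11.1% and 13.6% without *mt-co2*, in control and the mutant-labelled library. Recovered reads are the smallest that fit the values, and a larger multiple for a gene such as *mt-nd1* would change the share in reads. Among all genes, 74.2% of those past the threshold were higher as deposited, 52.3% with TMM, 52.0% with median-of-ratios and 42.8% with upper-quartile scaling.

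Counting error was largest for *mt-nd4l*, with 30 reads in control, where the overlapping *mt-nd4* had 7114. No paired analysis was possible because each group had 1 library, and leaving out a library leaves nothing to compare.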

Other observations

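*mt-nd4l* and *mt-atp8*, which overlap *mt-nd4* and *mt-atp6*, had very few reads in both libraries. *mt-nd4l* is 17.7% of the combined recovered length of *mt-nd4l* and *mt-nd4*, but held 0.420% of their reads in control (exact binomial 95% interval 0.284 to 0.599) and 0.483% (0.399 to 0.579) in the mutant-labelled library. *mt-atp8* is 19.4% of the combined length of that pair and held 1 of 9701 reads in control and 6 of 27771 in the mutant-labelled library. Per length, *mt-nd4* was at 51.0 and 44.4 times the level of *mt-nd4l*, although in vertebrates both lie on a single mRNA. The FPKM of *mt-nd4l* may therefore not measure its mRNA, and the counting rule behind it was not tested. In both libraries the 4 genes with the lowest FPKM among the 13 were *mt-atp8*, *mt-nd4l*, *mt-nd6* and *mt-nd3*. Their recovered lengths were 165, 297, 519 and 351. Apart from *mt-nd1* (325), whose recovered length can be shorter than the gene, the others had 684 or more. The part of gene length in these low levels, *mt-nd3* included, was not tested.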
